A study of Homo sapiens with 4 samples.

Results

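Imprinted genes are expressed from the copy inherited from 1 parent, and a group of them sets how far fetal tissues grow. To describe the chromatin of these loci when the histone methyltransferase EZH2 was inhibited, 10 genes were examined in HepG2 cells: H19, IGF2, CDKN1C, KCNQ1OT1, DLK1, MEG3, PEG10, PEG3, MEST and PLAGL1. The genes were chosen by name, and every accessible region overlapping the annotated gene body (GENCODE, hg38) with 10 kb on either side was taken. These windows held 56 of the 170371 peaks listed in the series and 32 of the 80551 regions obtained when overlapping peaks were joined across libraries. The 10 genes stand among 62663 annotated genes.

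HepG2 is an established human liver cancer line, which the study describes as hepatocellular carcinoma, here of wild-type genotype in both groups. Open chromatin was mapped by ATAC-seq, in which a transposase cuts and tags accessible DNA, from 50000 cells for each of 4 libraries. The 2 control libraries came from untreated cells, and the 2 tazemetostat libraries from cells kept 24 h to stabilise and then given 5 µM tazemetostat, an EZH2 inhibitor dissolved in DMSO, for 48 h. The labels call the controls untreated and do not say whether they received the vehicle. Depth was 17.2 and 23.8 M tags for the controls, 19.8 and 26.6 M for tazemetostat. The peak lists held 26133, 34768, 55313 and 54157 peaks in the same order. Tags in peaks made up 4.32% and 5.69% of mapped tags in the controls and 11.51% and 9.81% under tazemetostat. This difference follows the groups and cannot be told apart from the treatment. Nothing in the labels says that the 2 libraries of a group came from separate cultures, so the spread between them may be technical. The lists do not separate the parental alleles, and tags were not corrected for the gains of whole chromosomes that this line carries.

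At an imprinted locus, DNA methylation laid down in 1 parental germline marks a control region, and this mark decides which copy is used. H19 and IGF2 share such a region at 11p15: the maternal copy transcribes the long noncoding RNA H19, and the paternal copy IGF2, a fetal growth factor. In the adjacent domain the paternal long noncoding RNA KCNQ1OT1 starts inside an intron of KCNQ1 and keeps neighbours in cis silent, among them CDKN1C, a cyclin-dependent kinase inhibitor that restrains growth. At 14q32 the paternal copy expresses DLK1, a transmembrane protein of the Notch ligand family, and the maternal copy MEG3, another long noncoding RNA. PEG10, PEG3, MEST and PLAGL1 are paternally expressed; PEG10 derives from a retrotransposon, PEG3 and PLAGL1 encode zinc finger proteins and MEST a hydrolase-fold protein. Polycomb methylation of histone H3 also lies on silent copies at some of these loci, and this is the mark that EZH2 writes.

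Sequences of several regions on which the results below turn are shown first, so that the reader can see what kind of DNA was accessible. Each is at most 300 bases of hg38 on the strand of the named gene, taken from the part of the region that the libraries listing it had in common (for MEST, whose peaks overlapped by only 88 bases, from the whole region) and kept clear of annotated untranslated regions. Capitals mark letters found by a search on both strands for a CTCF core (GGNGGCAG), for the hexamer read by the imprint-maintaining zinc finger protein ZFP57 (TGCCGC) and for the core bound by YY1 (AAGATGGC). CTCF is an insulator protein and YY1 a zinc finger factor with repeated sites near PEG3. Where more than 300 bases were available, the stretch with the most matches was printed, or the most central of those that tied. A match is only a description of the letters, and its presence in a printed stretch partly follows from this choice.
PEG10 intron, chr7:94657933-94658232, plus strand: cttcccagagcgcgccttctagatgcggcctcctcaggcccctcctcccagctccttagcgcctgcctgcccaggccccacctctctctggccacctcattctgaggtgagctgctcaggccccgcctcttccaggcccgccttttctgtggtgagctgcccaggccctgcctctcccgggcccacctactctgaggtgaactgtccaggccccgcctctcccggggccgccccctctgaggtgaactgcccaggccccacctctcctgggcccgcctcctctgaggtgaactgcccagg
PEG3 intron, chr19:56839376-56839675, minus strand: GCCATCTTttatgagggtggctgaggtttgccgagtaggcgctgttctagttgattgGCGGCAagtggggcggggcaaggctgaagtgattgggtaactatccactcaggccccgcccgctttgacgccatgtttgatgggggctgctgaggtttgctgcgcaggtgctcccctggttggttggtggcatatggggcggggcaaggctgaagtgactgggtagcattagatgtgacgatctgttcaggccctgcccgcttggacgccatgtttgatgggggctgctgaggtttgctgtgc
MEG3 intron, chr14:100817380-100817679, plus strand: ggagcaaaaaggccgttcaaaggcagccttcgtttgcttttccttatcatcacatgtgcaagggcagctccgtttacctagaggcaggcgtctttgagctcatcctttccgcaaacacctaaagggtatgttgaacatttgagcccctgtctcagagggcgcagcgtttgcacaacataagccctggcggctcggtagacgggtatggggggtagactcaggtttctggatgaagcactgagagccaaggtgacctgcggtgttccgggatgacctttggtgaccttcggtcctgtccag
MEST upstream of its start, chr7:130485933-130486170, plus strand: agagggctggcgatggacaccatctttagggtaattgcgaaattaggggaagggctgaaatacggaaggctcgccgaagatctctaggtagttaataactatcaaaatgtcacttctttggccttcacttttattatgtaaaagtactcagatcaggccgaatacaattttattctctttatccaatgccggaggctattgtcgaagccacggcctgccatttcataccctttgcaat
PLAGL1 and HYMAI promoter, chr6:144008431-144008524, minus strand: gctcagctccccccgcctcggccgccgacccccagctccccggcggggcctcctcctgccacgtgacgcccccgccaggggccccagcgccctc
Downstream of PEG10, chr7:94671903-94672163, plus strand: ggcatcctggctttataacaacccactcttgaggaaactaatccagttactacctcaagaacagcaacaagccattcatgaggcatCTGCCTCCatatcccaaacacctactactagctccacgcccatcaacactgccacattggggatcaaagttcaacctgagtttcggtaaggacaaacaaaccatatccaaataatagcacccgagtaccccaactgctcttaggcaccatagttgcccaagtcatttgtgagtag

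The first 3 stretches come from regions listed in all 4 libraries, the MEST stretch from a region listed in 3, and the last 2 from regions listed in both tazemetostat libraries and neither control. The PEG3 stretch held 1 ZFP57 and 1 YY1 match. The central 300 bp of the PEG3 region, which were not chosen by matches, held 1 ZFP57 and no YY1 match. The PEG10 intron and the MEG3 intron held none of the 3 sets of letters, and the region downstream of PEG10 held 1 CTCF core.

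To see how far each gene was covered, peaks were counted by window. Control replicate 1 listed 8 peaks over 6 of the genes and control replicate 2 listed 13 over 5. Tazemetostat replicate 1 listed 16 over 8 genes and tazemetostat replicate 2 listed 19 over 8. Both tazemetostat counts lay above both control counts, as did the whole peak lists. As a share of all peaks of the library, the windows held 0.0306% and 0.0374% in the controls and 0.0289% and 0.0351% under tazemetostat, and these ranges overlapped. PLAGL1 had the most regions (11), followed by MEG3 (7), KCNQ1OT1 (4), PEG10 (3), H19 and PEG3 (2 each), and IGF2, CDKN1C and MEST (1 each). No library listed a peak in the 32.5 kb window of DLK1.

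**Figure D1:**
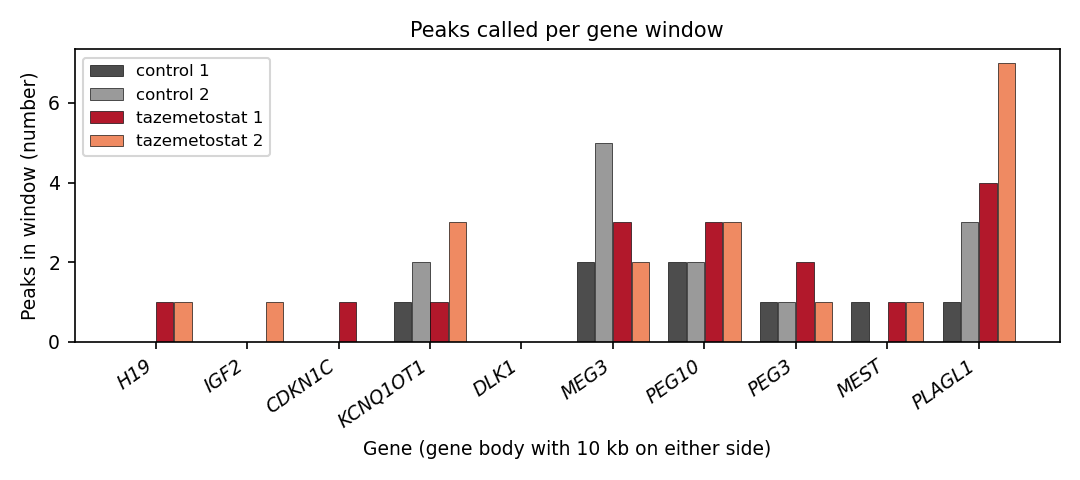
Number of peaks in the window of each gene (gene body with 10 kb on either side), with 1 bar per library. DLK1 has no bar, IGF2 and CDKN1C have 1 peak in a single tazemetostat library, and the PLAGL1 window goes from 1 and 3 peaks in the controls to 4 and 7 under tazemetostat.

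Regions were then classed by the libraries that listed them. All 4 libraries shared 5 of the 32 regions (15.6%), against 20.4% of all regions in the series. Both tazemetostat libraries and no control listed 3 regions (9.4%), against 13.7% of all regions. No region was listed in both controls and neither tazemetostat library, a class that held 362 regions or 0.4% of the series. A single library listed 20 of the 32 (62.5%), against 46.2% of all regions: control replicate 1 alone listed 2, control replicate 2 listed 5, tazemetostat replicate 1 listed 4 and tazemetostat replicate 2 listed 9. Regions of a single library were weak, with a median normalised tag count of 9.24 (range 5.65 to 27.7), where the normalised tag count is the number of tags in the peak per 10 M mapped tags. They rested on 13 to 55 tags, and 12 of the 20 had the minimum length of 300 bp. Where a library lists no peak it gives no value, so an absence is not a measured 0.

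**Figure D2:**
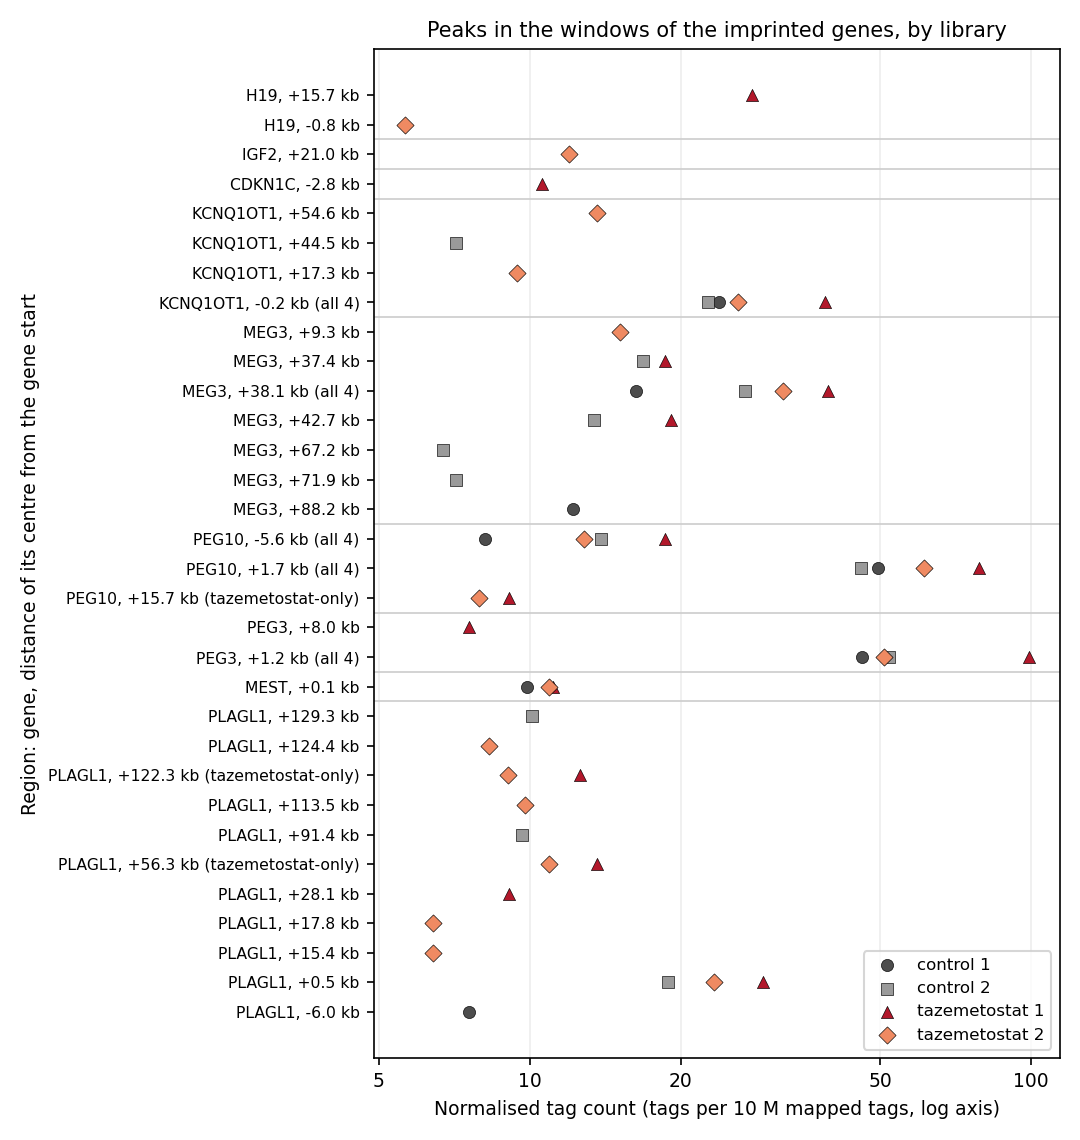
Normalised tag count (log axis, tags per 10 M mapped tags) of each of the 32 regions, 1 row per region named by its gene and the distance of its centre from the gene start, with 1 point for each library that listed a peak. The PEG3 and PEG10 introns hold the highest counts, and 20 of the 32 rows carry a single point.

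At the H19 and IGF2 locus no control library listed a peak in either window. In the H19 window, tazemetostat replicate 1 listed an intronic region of MRPL23-AS1 beyond the 3′ end of H19 (chr11:1988690-1989066) at 27.7, and tazemetostat replicate 2 listed a region upstream of the annotated H19 start (chr11:2005248-2005548, centred at -846 bp) at 5.65, or 15 tags. Neither region was listed by the other tazemetostat library. None of the 24 annotated H19 starts had a peak within 500 bp in any library. In the IGF2 window, tazemetostat replicate 2 alone listed a 300 bp region over 3 of the 10 annotated IGF2 starts (chr11:2137217-2137517), at 12 and a fold of 4.04 over the local background. This fold stands just above the 4-fold that peak calling required.

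Of the regions in the KCNQ1OT1 and CDKN1C windows, all 4 libraries listed the one at the start of the silencing RNA. This region over the KCNQ1OT1 start (chr11:2699883-2700425), which lies in an intron of KCNQ1, gave 23.8 and 22.7 in the controls and 38.8 and 26 under tazemetostat. Both tazemetostat values lay above both controls, with tazemetostat replicate 2 only 2.2 above the higher control. All 6 annotated KCNQ1OT1 starts lay within 500 bp of this region, which made it the only start of the 10 genes that was listed in all 4 libraries. The other 3 KCNQ1OT1 regions lay 17285 to 54596 bp inside the transcript and were each listed once, 1 in control replicate 2 at 7.14 and 2 in tazemetostat replicate 2 at 13.6 and 9.41. The CDKN1C window held a single region, in an exon of SLC22A18AS upstream of the CDKN1C start (chr11:2888416-2888809, centred at -2838 bp), listed in tazemetostat replicate 1 at 10.6. None of the 6 CDKN1C starts had a peak within 500 bp. Summed over the KCNQ1OT1 window, tag counts were 23.8 and 29.8 in the controls (mean 26.8 ± 4.27, SD, n = 2) and 38.8 and 49.0 under tazemetostat (43.9 ± 7.22, n = 2).

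At the DLK1 and MEG3 locus the DLK1 window held no listed region and the MEG3 window held 7. The one with the highest tag counts was an intronic region 38084 bp downstream of the most upstream MEG3 start (chr14:100817205-100817784), with 16.3 and 26.9 in the controls and 39.3 and 32 under tazemetostat. The groups did not overlap, and the lowest value was that of control replicate 1. A neighbouring region ended 180 bp before it (chr14:100816613-100817025) and was listed in control replicate 2 at 16.8 and tazemetostat replicate 1 at 18.6. The remaining regions were listed in 1 or 2 libraries at 6.72 to 19.1, and 3 of them were listed in a control library alone. None of the 34 annotated MEG3 starts lay within 500 bp of a peak. Apart from the most upstream start, they lay at chr14:100826098 or beyond, downstream of the region with the highest tag counts. Summed over the window, MEG3 gave 28.5 and 71.0 for the controls and 77.0 and 47.1 for tazemetostat, and the groups overlapped.

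PEG10 and PEG3 held the regions with the highest tag counts, which were also the longest of the 32, at 1275 and 1219 bp after joining the libraries. An intronic region 1734 bp downstream of the PEG10 start (chr7:94657421-94658696) gave 49.4 and 45.8 in the controls and 78.6 and 61.0 under tazemetostat, without overlap. A weaker region in an intron of the neighbouring gene SGCE, which is also imprinted (chr7:94650313-94651097), gave 8.14 and 13.9 in the controls and 18.6 and 12.8 under tazemetostat, and here the groups overlapped. Another region, intergenic and 15666 bp from the PEG10 start (chr7:94671780-94672203), was listed under tazemetostat alone, at 9.07 and 7.91. These values were 18 and 21 tags. For PEG3, a region in an intron of both PEG3 and ZIM2, 1244 bp downstream of the PEG3 start (chr19:56838874-56840093), gave 46.0 and 52.1 in the controls and 98.8 and 50.8 under tazemetostat. Tazemetostat replicate 1 alone stood above the controls, and its peak was also the longest, 1219 bp against 782, 802 and 726 bp. None of the annotated starts of PEG10 (5) or PEG3 (10) lay within 500 bp of a peak.

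MEST was listed at its most upstream promoter, called the MEST promoter below, with few tags. The region (chr7:130485933-130486539) covered the first annotated MEST start and gave 9.89 in control replicate 1 and, under tazemetostat, 11.1 and 10.9, which are 17, 22 and 29 tags. Control replicate 2, the deeper control, listed no peak there. Of the 17 annotated MEST starts, 5 had a peak within 500 bp, all from this region. The RefSeq promoter windows further downstream (chr7:130491079-130492134) held 16 to 25 CpG dinucleotides each and had no peak in any library.

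PLAGL1 held 2 of the 3 regions listed under tazemetostat alone. The first covered the promoter that PLAGL1 shares with the noncoding RNA HYMAI (chr6:144008040-144008593), at 13.6 and 10.9, or 27 and 29 tags, with local folds of 9.45 and 6.32. The RefSeq promoter window of this start (GRCh38.p14, chr6:144008210-144008509) was 75.7% G and C with 39 CpG dinucleotides and 2 ZFP57 matches. The second lay in an exon near the 3′ end of the gene, 122308 bp from the most upstream start (chr6:143942068-143942513), at 12.6 and 9.03. At the most upstream start the region chr6:144063570-144064555 gave 18.9 in control replicate 2 and 29.2 and 23.3 under tazemetostat, and had no peak in control replicate 1. The other 8 regions were each listed in a single library, at 6.40 to 10.1. The window sums were 7.6 and 38.7 in the controls (23.1 ± 21.99, n = 2) and 64.5 and 74.1 under tazemetostat (69.3 ± 6.81, n = 2), without overlap. The sum of control replicate 1 is that of a single listed peak, and the difference of 46.2 between the means became 3.14 when every library had the same number of peaks, 9.03 at a local fold of at least 8 and 30.6 without control replicate 1.

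The genes with a region listed under tazemetostat alone were therefore PEG10 and PLAGL1, 2 of 10 (20%), the same share as among all annotated genes (20%). All 3 of these regions were lost when the lists were cut to an equal number of peaks per library or to a local fold of at least 8. In these 2 settings 16 and 6 member regions were left, and 6.01% and 13.3% of all regions were of this class. With so few member regions left, a count of 0 cannot be told apart from these shares.

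Window sums were compared for the 5 genes that had a peak in every library, by a two-sided exact permutation test, whose smallest p with 2 libraries against 2 is 0.33. KCNQ1OT1, PEG10 and PLAGL1 reached this exact p of 0.33 and MEG3 and PEG3 gave an exact p of 0.6667. Adjusted over the 5 tests (Benjamini-Hochberg) these exact p became 0.5555 and 0.6667. PEG10 sums were 57.5 and 59.7 against 106.3 and 81.7, and PEG3 sums were 46.0 and 52.1 against 106.4 and 50.8. The sums of KCNQ1OT1, PEG10 and PLAGL1 did not overlap between the groups. How often the groups separate in this way over all genes or regions was not counted. Separation of the groups is therefore not given as a trait of these genes or of the single regions above. A sum leaves out every position where no peak was listed, so it follows the number of peaks listed as well as their tags. The design cannot place any of these genes past a threshold of 0.05. The MEG3 difference of 12.3 became -8.91 without control replicate 1 and -2.63 without tazemetostat replicate 1, and the PEG3 difference of 29.5 became 1.75 without tazemetostat replicate 1.

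The 5 regions with 1 peak in each of the 4 libraries were tested with limma on log2(normalised tag count + 1) together with all 15383 such regions of the series. None of the 5 passed an adjusted p of 0.05 in either direction, while 42.7% of all tested regions were higher and 0.247% lower under tazemetostat. At an unadjusted p under 0.05 there was 1 of the 5 and 8986 of all regions. The MEG3 region had a log2 difference of 0.73 (SE 0.31, adjusted p = 0.0607 in limma) and the PEG10 intron one of 0.53 (SE 0.30, adjusted p = 0.128 in limma). The PEG3 intron differed by 0.53 (SE 0.33), the SGCE intron near PEG10 by 0.50 (SE 0.32) and the KCNQ1OT1 start by 0.44 (SE 0.31), with adjusted p of 0.165, 0.181 and 0.212 in limma. On this scale the median over the 5 was 0.53, below the 0.70 of all tested regions.

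Because the bulk of regions was higher under tazemetostat, as was the share of tags in peaks, the differences were also read against that median. The MEG3 region lay 0.03 above it, and the KCNQ1OT1 start, the SGCE intron, the PEG3 intron and the PEG10 intron stood at -0.27, -0.21, -0.18 and -0.17 relative to it. In the ranking of all tested regions, 53.4% had a smaller difference than the MEG3 region, against 21.8% for the KCNQ1OT1 start, 26.7% for the SGCE intron, 29.5% for the PEG3 intron and 30.2% for the PEG10 intron. With libraries scaled by TMM factors the differences of all 5 were between -0.26 and -0.02, none past the threshold in edgeR. The direction thus depended on the scaling. The size of the difference at the MEG3 region and the SGCE intron depended on single control libraries. Without control replicate 2 they stood at 1.08 and 0.85, where the median of all tested regions was 0.80. Without control replicate 1 they stood at 0.39 and 0.14, where that median was 0.57. Each of these fits has a single control library, which is assumed to vary like the tazemetostat pair.

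**Figure D3:**
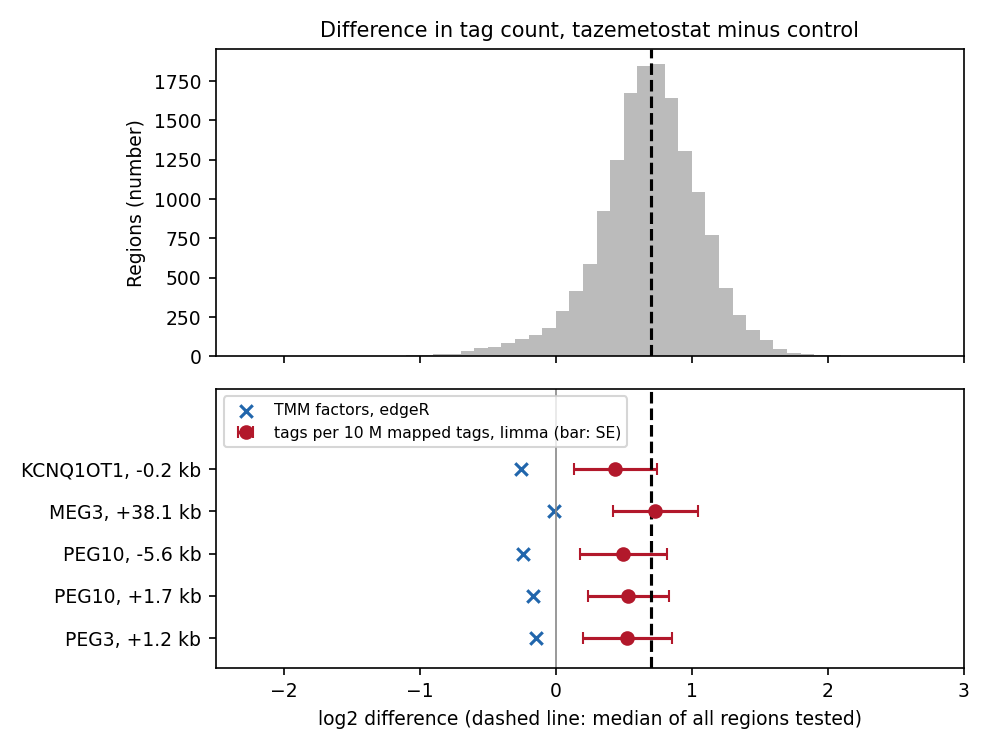
Top, log2 difference in tag count (tazemetostat minus control) over the 15383 regions with 1 peak in each library. Bottom, the same difference for the 5 regions of the imprinted genes, as circles with SE bars from limma and as crosses after TMM scaling in edgeR; the dashed line is the median of all regions, 0.70, and the circles sit at 0.44 to 0.73 while the crosses sit at or below 0.

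Levels were compared between regions per length of peak, for the 7 regions listed in 3 or 4 libraries. Among these the mean tag count per kb was highest in the PEG3 intron (58.8 and 65.0 in the controls, 81.1 and 70 under tazemetostat). It was next highest at the KCNQ1OT1 start, followed by the PEG10 intron and the MEG3 intron, whose means over the 4 libraries were 57.0, 56.6 and 55.7. Over the libraries the ranges of these 4 regions overlapped, but within each library the PEG3 intron was the highest of them. The other 3 changed order between libraries, so their order is not resolved. The most upstream PLAGL1 start (23.7 to 36.6 per kb), the MEST promoter (22.2 to 33.0) and the SGCE intron (26.5 to 28.3) formed a lower set whose ranges overlapped each other and did not reach the 42.9 per kb of the lowest library at the MEG3 intron. In the SGCE intron the density per kb was 27.1 and 28.3 for the controls, 27.9 and 26.5 for tazemetostat, and its higher tag counts in 3 libraries went with longer peaks (491, 667 and 483 bp against 300 bp in control replicate 1).

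Most peaks at these genes stood only a little above their surroundings. Peak calling required a 4-fold excess over the surrounding 10 kb, and 29 of the 56 peaks (51.8%) had a fold below 5, against 33.9% of all peaks. Only 8 (14.3%) reached 8-fold, against 29.1% of all peaks. The median fold of the members was 4.95 and 4.36 in the controls and 5.82 and 4.81 under tazemetostat, below the 5.92, 5.65, 6.09 and 5.75 of the whole lists. On chromosome 11, 9 of 11 peaks were below 5-fold, and on chromosome 14, 8 of 12, where 35.3% and 36.4% of all peaks on these chromosomes were. The region with the most tags at PEG10 had folds of only 4.04 to 4.77, and the SGCE intron, with fewer tags, had 17.4, 15.2, 6.36 and 10.5. A library in which such a region fell below 4-fold would list no peak there, and this bears on each region that 1 library lacked.

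**Figure D4:**
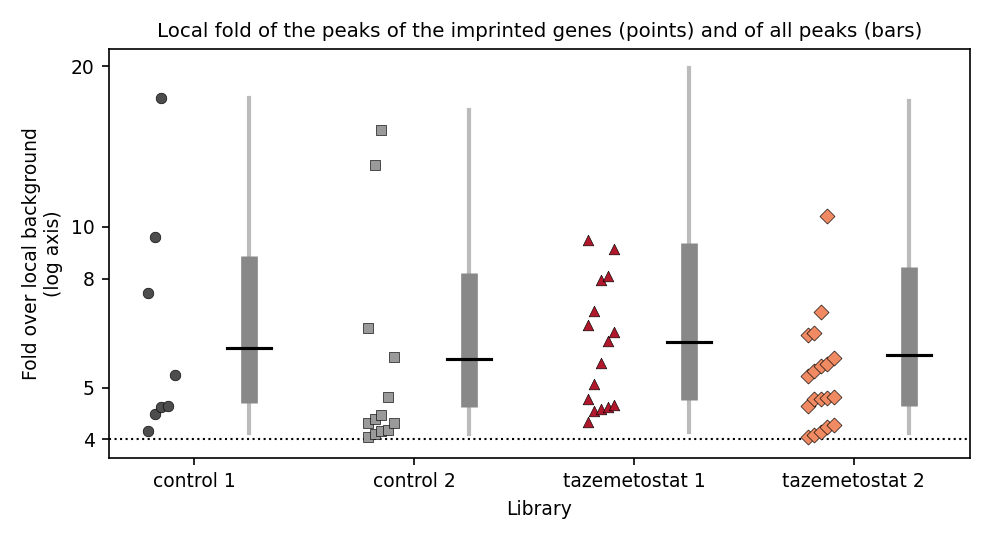
Fold of each peak over its local background (log axis) by library. Points are the 56 peaks of the imprinted genes; beside them the thick bar spans the middle 50% of all peaks of that library, the thin bar the range from the 5th to the 95th percentile and the black line the median, and the dotted line marks the 4-fold that was required. Many points lie between 4 and 5.

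The regions were also described by their base composition, which the choice of genes did not use. In the central 300 bp, the 32 regions had a median of 55.7% G and C, against 52.3% over 80537 regions of the series. A CpG-rich centre (over 50% G and C and an observed-to-expected CpG ratio over 0.6) was found in 4 of the 32 (12.5%), against 16.9% of all regions. These were the KCNQ1OT1 start, the MEST promoter, the most upstream PLAGL1 start and the PLAGL1 and HYMAI promoter, with ratios of 0.753, 0.846, 0.829 and 0.964. The 4 were thus all at starts of the genes. The ZFP57 hexamer occurred in 6 of the 32 centres (18.8%), against 9.4% of all regions, and the CTCF core in 8 (25.0%), against 15.5%. The YY1 core occurred in none of the 32 centres and in 1.5% of all. With 32 regions such differences in share are counts of a few, and they were not tested.

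To place the 10 genes among others of their kind, 46 further imprinted genes were listed. Of these, 42 had a region in the window, 22 a region shared by all 4 libraries and 16 (34.8%) a region listed under tazemetostat alone, against 20% of all genes. They held 198 distinct regions, 187 of them outside the windows above, of which 28 (15%) were listed under tazemetostat alone and 38 (20.3%) in all 4 libraries, close to the 13.7% and 20.4% of all regions. HYMAI, SGCE, MESTIT1, KCNQ1, IGF2-AS, ZIM2 and MIMT1 shared a region with 1 of the 10 genes. By mean tag count, the tazemetostat-only regions were led by an intron of KCNQ1 (28.2 and 27.1 at chr11:2562064-2562542), the HM13 and MCTS2 promoter (36.3 and 16.9), the promoter of SLC22A18, a neighbour of CDKN1C (30.7 and 20.7), and another site in KCNQ1 (25.7 and 21.1 at chr11:2563718-2564112). There followed an exon of IGF2R, the receptor that clears IGF2, at 18.1 and 16.2, a site near PHLDA2 at 13.6 and 17.3, and introns of GRB10, a growth-restraining adaptor, at 14.6 and 15.4 and at 19.7 and 10.2. The number of further imprinted genes with a tazemetostat-only region ran from 4 to 28 over the alternative settings. It was 4 when every library had the same number of peaks, where 6.01% of all regions were of this class.

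Of 8 genes that maintain imprints, DNMT1, UHRF1, TRIM28, ZNF445, CTCF, SMCHD1 and SETDB1 had regions (7 of 8, 87.5%), against 65.4% of all genes. ZFP57 had none in any library. TRIM28, ZNF445 and SMCHD1 had a region listed under tazemetostat alone (3 of 8, 37.5%, against 20% of all genes), that of TRIM28 at the promoter of the adjacent UBE2M (36.3 and 22.2).

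The label of the cells was checked at genes typical of hepatocytes. All 8 (ALB, AFP, APOA1, APOB, TTR, SERPINA1, HNF4A and FOXA2) had a region, against 65.4% of all genes. A region shared by all 4 libraries was found for 6 of them (75%), against 31% of all genes. FOXA2 had 2 regions, each listed in a single tazemetostat library. ALB, APOB, TTR and HNF4A (4 of 8, 50%) had a region under tazemetostat alone, against 20% of all genes. Of 8 genes typical of other liver cells, 6 (75%) had a region, against 65.4% of all genes, and PTPRC and KRT7 had none. CD68 and PECAM1 (2 of 8, 25%) had regions in all 4 libraries, against 31% of all genes. CD3E, PECAM1, VWF, COL1A1 and ACTA2 (5 of 8, 62.5%) had a region under tazemetostat alone, against 20% of all genes. A window with 10 kb on either side can hold regions of a neighbouring gene, and the part of other cell types was not tested.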

How the data were processed

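The 4 peak lists of HepG2 ATAC-seq were used as deposited, 1 per library, with groups and replicate numbers from the sample titles. The submitters' processing notes and the methods name Trim Galore 0.6.6 for trimming, Bowtie2 2.3.5.1 for alignment to hg38 and HOMER 4.11.1 for calling peaks, library by library. Per the file headers, 300 bp peaks were stitched into regions of variable length and had to stand 4-fold above the surrounding 10000 bp. The headers give a false discovery rate of 0.001, another value than the methods state, and a fragment length of 200 bp for the controls and 144 bp for the tazemetostat libraries; this setting and the treatment cannot be told apart. At least 14 or 16 tags per 300 bp were required, depending on the library.

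Values were the deposited normalised tag counts, a signal in tags per 10 M mapped tags. The deposited fold over local background (a ratio) was used to describe and filter peaks, and the deposited p-value, clonal fold and peak score (read as a count) were not used for testing. Multiplied by the mapped tags, the tag counts came within 0.25 of a whole number in 100.0% of peaks, and the rounded tags were given to edgeR and DESeq2 in the alternatives. Intervals for single peaks were not drawn, and counting error is only part of their error.

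The members and the gene lists were chosen with earlier results of these data known. Named with all values were regions within 500 bp of a start of the gene, regions listed in both libraries of 1 group and neither of the other, and the region with the highest mean tag count in each window; other imprinted and imprint-maintenance genes were named from those with such a group-specific region, by highest mean tag count. Peaks overlapping by 1 bp were joined. Using GENCODE release 44, the centre of each region was put in a promoter (1000 bp upstream to 100 bp downstream of a start), exon, intron or intergenic. All 281 sequences that carried peaks were present in the reference, with no peak past their ends. The sequence of 1 further region is not reported here. RefSeq promoter windows were matched for H19, MEG3, MEST and PLAGL1. limma 3.58.1 (lmFit and eBayes, no block, Benjamini-Hochberg over all regions tested), edgeR 4.0.16 and DESeq2 1.42.0 ran in R 4.3.3, and figures in Python 3.11.15 with matplotlib 3.10.9. DESeq2 left 1492 regions without an adjusted p. The code for merging, testing and motif search was checked on simulated data.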

Additional observations from a re-analysis of the deposited data

How the results depend on the processing

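The direction of the tag count differences turned with the scaling, and the number of regions listed under tazemetostat alone turned with the number and strength of the peaks used. Tazemetostat-only regions (3) became 0 of 6 at a local fold of at least 8 and 0 of 16 with equal numbers of peaks. They became 11 with 50 kb on either side, and 4 to 12 when 1 library was left out. There were 12 without tazemetostat replicate 1 and 7 without tazemetostat replicate 2. The share moved over all regions too: it was 15.5% of the member regions and 13.7% of all at 50 kb, 42.9% and 36.4% without tazemetostat replicate 1, and 30.4% and 37.2% without tazemetostat replicate 2. Genes with such a region (2) became 0, 0 and 6 in the same settings, 1 with the gene body alone, and 2 to 6 when 1 library was left out. Regions in all libraries (5) became 0 at a local fold of at least 8, which left none to test, and 12 with 50 kb on either side. Control-only regions (0) became 0 to 5 when 1 library was left out, 5 without control replicate 1 and 2 without control replicate 2. At these genes they were the regions that the remaining control library alone had listed. Control replicate 2 alone listed 15.6% of the member regions and 6.7% of all regions, and control replicate 1 alone 6.2% and 5.9%.

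Among settings that kept all 4 libraries, regions past the threshold of higher counts (0) became 1 with a pseudocount of 5 (the MEG3 intron). Per kilobase of peak there were 2 (the MEG3 and PEG10 introns), and in edgeR with mapped tags as library sizes 1 (the PEG3 intron). Of all regions tested, 48.9%, 32.9% and 48.5% were higher in these settings, in the same order. None of the 5 member regions was lower in any setting. Their median log2 difference of 0.53 became -0.23 with each library centred on its median, -0.17 with TMM factors, -0.18 in DESeq2, and 0.24 to 0.75 when 1 library was left out. Centred on the median, TMM and DESeq2 gave -0.32, -0.26 and -0.26 at the KCNQ1OT1 start, -0.27, -0.24 and -0.22 in the SGCE intron, -0.23, -0.17 and -0.18 in the PEG10 intron and -0.23, -0.15 and -0.14 in the PEG3 intron. The MEG3 intron gave -0.029 centred, -0.015 with TMM and 0.0011 in DESeq2, and the SGCE intron -0.027 per kilobase of peak. Over all regions tested, calls higher and lower were 6569 and 38 in limma, 0 and 0 centred, 23 and 174 with TMM factors, 3 and 106 in DESeq2 and 7455 and 52 in edgeR with mapped tags. Several differences between window sums that 1 library or setting decides are given in the report. At a local fold of at least 8 the PEG10 difference of 35.4 became -4.62. The KCNQ1OT1 (17.1), MEG3 and PEG3 differences became 0 in that setting, with no peak of these windows at that fold. The cause of these differences beyond the scaling itself was not tested.

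With the replicate block the median stayed at 0.53 with 0 regions past the threshold, and calls over all regions were 5046 higher and 27 lower. Same-numbered libraries did not deviate together (correlation -0.002 for each number), so the numbers were not used as pairs. The settings for the other imprinted genes were chosen after seeing the data. Few tags per peak (13 to 55 in regions of a single library) limit what an absent peak can show.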

Other observations

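Between the windows of the paired genes lay further regions that belong to no window of the 10 genes. Over the 104.6 kb between H19 and IGF2 there were 7 regions, none in all 4 libraries and 1 under tazemetostat alone, against 13.7% of all regions for that class. The latter (chr11:2097454-2098121, intergenic) stood at 45.4 and 35, higher than any region listed in the H19 and IGF2 windows. The other 6 were listed in 1 or 2 libraries at 6.02 to 16.2.

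The 163.2 kb between KCNQ1OT1 and CDKN1C, mostly introns of KCNQ1, held 11 regions, of which 4 were listed under tazemetostat alone at 8.06 to 14.6, a class that held 13.7% of all regions. All 4 were also counted above for KCNQ1, among the further imprinted genes. These 4 of 11 were not tested against that share. The strongest of the 11 (chr11:2728732-2729244) was absent from the list of control replicate 1 and gave 29.8 in control replicate 2 and 60.5 and 52.3 under tazemetostat. Between DLK1 and MEG3, over 21.2 kb, 1 intergenic region was shared by all 4 libraries (chr14:100750892-100751617), at 9.31 and 17.2 in the controls and 29.7 and 32.4 under tazemetostat. Both tazemetostat values stood above both controls there, and how many of all regions do so was not counted.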
